A study of Mus musculus with 3 samples.

Results

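The genes described here are 9 genes of retinoic acid and chemerin signalling: Rbp4, Stra6, Crabp1, Aldh1a1, Aldh1a2, Cyp26b1, Rarb, Rarres2 and Cmklr1. They were chosen by name, as the gene symbols listed in the deposited matrices, and all 9 were found once each among 31253 genes. Their levels were read in cell classes that were named from marker genes, with the tanycyte-like, ependymal-like, neuron-like and fibroblast-like cells at the centre.

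The study measured single-cell RNA in the arcuate nucleus, a nucleus at the base of the hypothalamus that regulates feeding, in male C57BL/6JRj mice of 5 to 6 weeks. Mice weaned onto standard chow (SC) for 15 days were set beside mice kept on SC for 10 days and then moved to a high-fat high-sucrose (HFHS) diet for 5 days, and beside mice on HFHS for 15 days from weaning. Micropunched tissue of 6 mice was pooled for each diet before it was dissociated with collagenase/dispase and papain, and each pool gave 1 droplet library (10x Genomics 3ʹ kit). With 1 library per diet there is no replicate check between diets, so no p-value is given; every interval below is an exact 95% interval that covers counting error only.

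Retinol travels in blood bound to the carrier RBP4, can enter cells through the membrane protein STRA6, and is oxidised to retinaldehyde and then, by ALDH1A enzymes, to retinoic acid. Retinoic acid is bound in the cytosol by CRABP proteins, broken down by CYP26 enzymes and read in the nucleus by RAR and RXR receptors. Chemerin, the product of Rarres2, is a secreted protein first known as a retinoid-responsive gene product, and it acts on the receptor encoded by Cmklr1. In the hypothalamus, tanycytes and ependymal cells line the third ventricle, and tanycytes contact the ventricular fluid, the vessels of the median eminence and the arcuate neurons.

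After filtering, 4907 cells (SC), 4107 cells (5-day HFHS) and 5259 cells (15-day HFHS) were kept, with a median of 5135, 5783 and 4112 unique molecular identifiers (UMIs, counted RNA molecules) per cell in that order. Of 33 clusters, 25 were named, which placed 12438 of 14273 cells in 13 classes. The markers fixed for a class were highest in that class for 16 of 17 ependymal, 13 of 17 tanycyte, 18 of 18 neuron and 13 of 13 fibroblast markers. The 15-day and SC libraries shared 72 of their deposited cell barcodes, the 15-day and 5-day libraries shared 85, and the 5-day and SC libraries shared 13. Clusters 25 and 30, both unnamed, held cells of the 15-day library alone (44 and 36 cells).

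The 9 genes are protein-coding and lie at these places in GRCm38 (GENCODE vM21 annotation). On the plus strand are Crabp1 (chr9:54764748-54773110), Aldh1a1 (chr19:20492715-20643465), Aldh1a2 (chr9:71215789-71296243) and Stra6 (chr9:58063788-58153996). On the minus strand are Rarres2 (chr6:48569696-48572789), Cmklr1 (chr5:113612354-113650426), Rbp4 (chr19:38116629-38125281), Cyp26b1 (chr6:84571414-84593908) and Rarb (chr14:16430839-16819156). Exons of Rarres2 overlap Lrrc61, and exons of Rarb overlap Gm48162 and Top2b, each on the other strand.

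A level is given as CPM, the UMIs of the gene per 1000000 UMIs of all genes summed over the cells of a class in 1 library. The reads come from the 3ʹ ends of transcripts and are not scaled to gene length, so levels are compared between cells for 1 gene and not between genes. The 9 genes differed widely in how much data stands behind them. Rarres2 had 69532 UMIs in all, Aldh1a1 1759, Crabp1 1116, Stra6 1102, Cmklr1 755, Rbp4 485, Rarb 451, Cyp26b1 108 and Aldh1a2 73. The plot of levels by class gives every gene in every class and library.

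**Figure D1:**
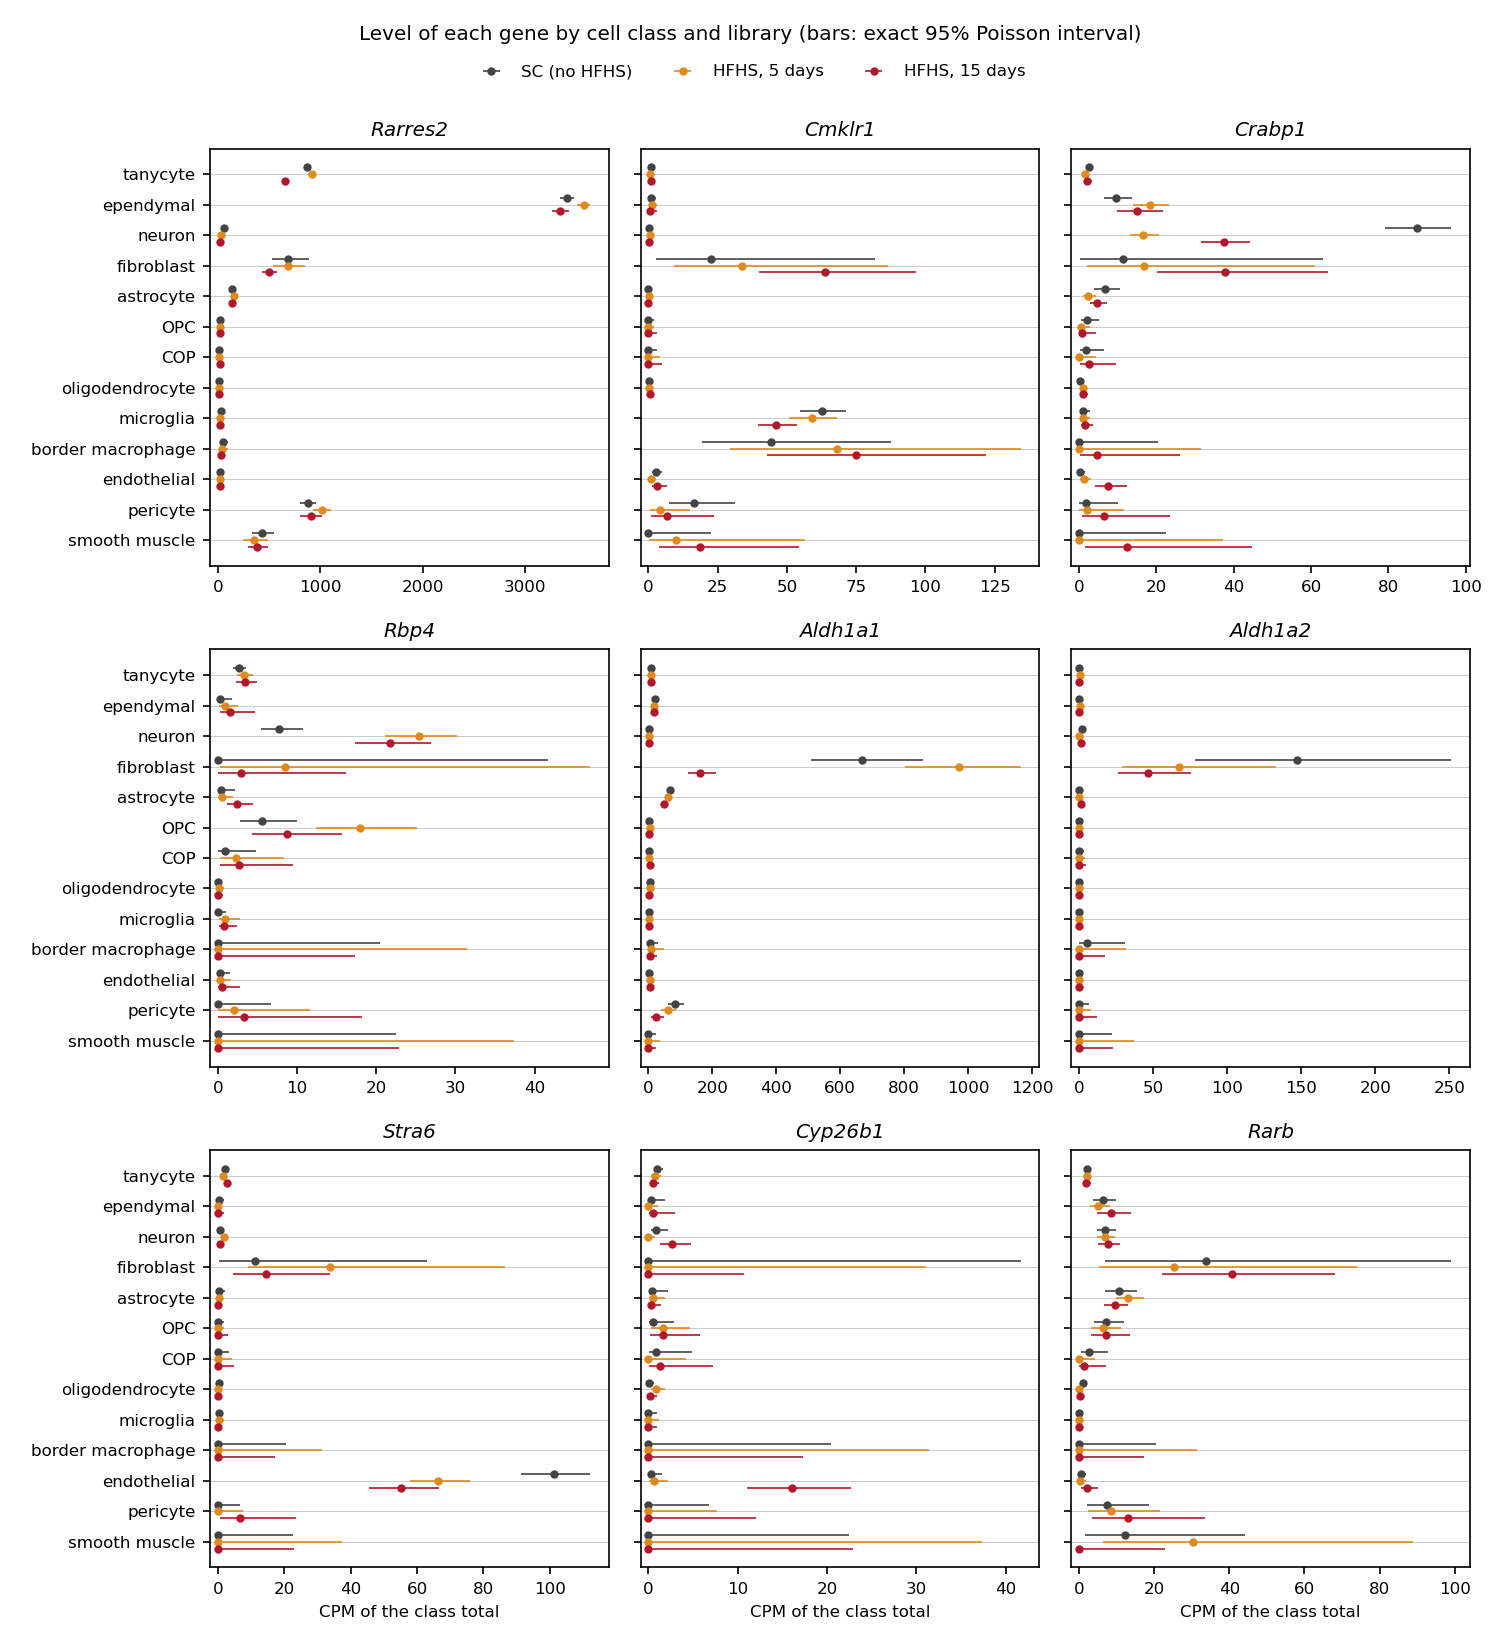
Levels of the 9 genes in the named cell classes, in CPM, with 1 point for each library (SC, 5-day HFHS, 15-day HFHS) and exact 95% Poisson intervals. Rarres2 is highest in ependymal-like cells (3409, 3573 and 3342 CPM in the SC, 5-day and 15-day libraries) and Stra6 in endothelial-like cells (101, 66.4 and 55.3 CPM).

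A gene was called higher or lower in a class when it was at least 2-fold above or below the sum of all other named classes in each of the 3 libraries, among genes with at least 50 UMIs in the named cells. All 9 genes passed that minimum, Aldh1a2 with the fewest (72 UMIs). In fibroblast-like cells 4 of the 9 were higher (Aldh1a1, Aldh1a2, Cmklr1 and Rarb), where 3.9% of all tested genes were, and none was lower, where 4.34% were. Aldh1a2 reached the minimum only through these cells, which held 37 of its 72 UMIs, so nothing is read from that count. The calls of Aldh1a2, Cmklr1 and Rarb as higher in fibroblast-like cells were lost in cells thinned to 1000 UMIs. In neuron-like cells 3 were higher against a background of 16.5% (Crabp1, Rbp4 and, at 2.11-fold to 2.48-fold, Rarb, which lost this call under either other scaling), and 4 were lower against 18.3%. In ependymal-like cells Rarres2 was the 1 higher gene against 10.9% and 3 were lower against 17.8%. In tanycyte-like cells none was higher, where 8.14% of all genes were, and 2 were lower, where 23.1% were. Rarres2 missed that call through the 5-day library alone, at 1.91-fold, with 2.22-fold (SC) and 2.10-fold (15-day).

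Rbp4, the retinol carrier, had its highest mean level in neuron-like cells, in a range that overlapped that of oligodendrocyte precursor-like cells. Among neurons its level was highest in the cells rich in Agrp, the peptide of hunger-promoting arcuate neurons. It stood at 7.77 CPM (SC), 25.4 CPM (5-day HFHS) and 21.7 CPM (15-day HFHS) in neuron-like cells, which was 5.53-fold to 10.5-fold above the other named classes. The call of Rbp4 as higher in neuron-like cells was lost in cells thinned to 1000 UMIs. Within the neurons the Agrp-rich cluster 31 held 56.6 CPM (SC), 84.8 CPM (5-day) and 80.5 CPM (15-day), while cluster 5, the one with most neurons, held 3.07, 2.09 and 6.94 CPM in the same order. In the SC library cluster 3, another neuron-like cluster, held 13.4 CPM from 15 of the 36 neuron UMIs, against 11 UMIs in cluster 31. At 15 days cluster 3 held 10.1 CPM, from 13 UMIs. Rbp4 was seen in 5 of 6 cells of cluster 31 in the SC library, in 26 of 33 in the 5-day library and in 25 of 33 in the 15-day library. Microglia-like cells, which give the level of free RNA in the droplets, had Rbp4 in 0 of 577 cells (SC), 3 of 511 (5-day) and 3 of 639 (15-day), at a median of 5381, 4917 and 4796 UMIs per cell, against 36319, 42722 and 24323 UMIs in cluster 31. The neuron level was higher on both HFHS diets.

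Other markers also differed between the neuron-like cells of the libraries. Red blood cell markers, all 5 detected in each library, summed to 4271 CPM (SC), 22.3 CPM (5-day) and 7.86 CPM (15-day). The 12 oligodendrocyte markers summed to 2494 CPM (SC), 1836 CPM (5-day) and 959 CPM (15-day), with 12, 11 and 12 of them detected, and the 11 endothelial markers, all detected, to 420.5, 1142 and 182 CPM in the same order. The part of these cells in the Rbp4, Crabp1 and Rarres2 values of neuron-like cells was not tested.

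For Rbp4 in neuron-like cells the log2 ratio to SC was 1.71 (1.16 to 2.29) at 5 days, with 25.4 CPM in the 5-day library against 7.77 CPM in the SC library. It was 1.49 (0.90 to 2.09) at 15 days, with 21.7 CPM against 7.77 CPM in the SC library. The Agrp-rich cluster made up a different share of the neurons in each library: 1.94% of neuron-like cells in SC, 15.2% at 5 days and 9.24% at 15 days, and 4.20%, 28.0% and 18.9% of their UMIs. Within that cluster the log2 ratio was 0.58 (-0.31 to 1.63) at 5 days and 0.51 (-0.44 to 1.59) at 15 days, intervals that include 0, with 11 UMIs in the 6 SC cells. A difference inside the Agrp-rich neurons was not detectable at this depth, and a change in which neurons were captured cannot be told apart from a change per neuron.

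Outside neurons, Rbp4 was found in oligodendrocyte precursor (OPC)-like cells, at 5.62 CPM (SC), 17.96 CPM (5-day) and 8.73 CPM (15-day). Each of these levels was above that of neuron cluster 5 in the same library. The share of those cells with an Rbp4 UMI was 4.26% (SC), 15.3% (5-day) and 4.59% (15-day), against at most 0.587% of microglia-like cells. The 5-day library stands apart, but with 34 UMIs there and 11 in SC the pair was under the 50 UMI minimum for a diet call. Thinned to 1000 UMIs per cell, those shares were 1.16% (SC), 0.495% (5-day) and 2.29% (15-day), an order that does not keep the 5-day library on top.

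Stra6, the retinol uptake receptor, was an endothelial gene. In endothelial-like cells it stood at 101 CPM (91.4 to 112) in the SC library, 66.4 CPM (57.8 to 75.9) in the 5-day library and 55.3 CPM (45.4 to 66.6) in the 15-day library. The intervals of both HFHS libraries lie below that of SC. Fibroblast-like cells came next, with 10 UMIs over the 3 libraries, and tanycyte-like cells had a mean of 2.21 CPM. Neuron-like and ependymal-like cells were below the other named classes in every library.

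The share of endothelial-like cells with a Stra6 UMI was 45.3% (SC), 33.9% (5-day) and 20.5% (15-day), against 0.173%, 0.196% and 0% in microglia-like cells. The log2 ratio to SC was -0.61 (-0.86 to -0.37) at 5 days and -0.87 (-1.19 to -0.56) at 15 days. Within cluster 17, the main endothelial cluster, it was -0.63 (-0.88 to -0.38) at 5 days and -0.81 (-1.13 to -0.49) at 15 days. In cluster 23, unnamed with endothelial and pericyte markers, Stra6 stood at 54.8 CPM (5-day) and 71.7 CPM (15-day) against 114 CPM (SC). Cluster 32, unnamed and led by red blood cell genes ahead of endothelial ones, had 97.7 CPM (5-day) and 56.1 CPM (15-day) against 116 CPM (SC), with the haemoglobin gene Hbb-bs at 112193 CPM (5-day) and 33903 CPM (15-day) against 123457 CPM (SC). The median depth of endothelial-like cells also moved, at 7532 UMIs (SC), 6585 UMIs (5-day) and 3749 UMIs (15-day). In cells thinned to 1000 UMIs, 6.15% (5-day) and 4.53% (15-day) held a Stra6 UMI, against 9.04% (SC). Stra6 at 15 days was the 1 diet call that held in thinned cells.

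Crabp1, the cytosolic retinoic acid binding protein, came from a few neurons with very many copies each. In neuron-like cells it stood at 87.4 CPM (SC), 16.6 CPM (5-day) and 37.5 CPM (15-day), which was 5.57-fold to 36.2-fold above the other named classes. Crabp1 UMIs were found in 19 of 310 neuron-like cells in the SC library, 12 of 217 in the 5-day library and 15 of 357 in the 15-day library. The 3 cells with most copies held 198, 68 and 62 UMIs in SC, 62, 6 and 3 UMIs at 5 days, and 60, 37 and 29 UMIs at 15 days. Those 3 cells made up 81.0% (SC), 86.6% (5-day) and 88.1% (15-day) of the Crabp1 UMIs of neuron-like cells.

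Most of these copies lay in cluster 3, a mixed cluster led by Cartpt, Pomc, Gal and Sst, at 335 CPM (SC), 59.2 CPM (5-day) and 100.4 CPM (15-day), in 5 of 44, 2 of 34 and 6 of 65 cells. An unnamed cluster with neuron markers and few UMIs per cell, cluster 27, held 447 CPM (SC), 408 CPM (5-day) and 327 CPM (15-day). In cluster 3, 8 cells had at least 5 Crabp1 UMIs, at a median depth of 26025.5 UMIs against 22222 UMIs in the 135 other cells. Of the 8 cells, Pomc was detected in 3, Agrp in 3, Gal in 2, Th in 1 and Sst in 1, and Ghrh, Tac2 and Kiss1 in none. Of the 135 other cells, Pomc was detected in 73, Agrp in 17, Gal in 35, Th in 45, Sst in 28, Ghrh in 30, Tac2 in 8 and Kiss1 in none. With 8 cells these shares are a description only.

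**Figure D2:**
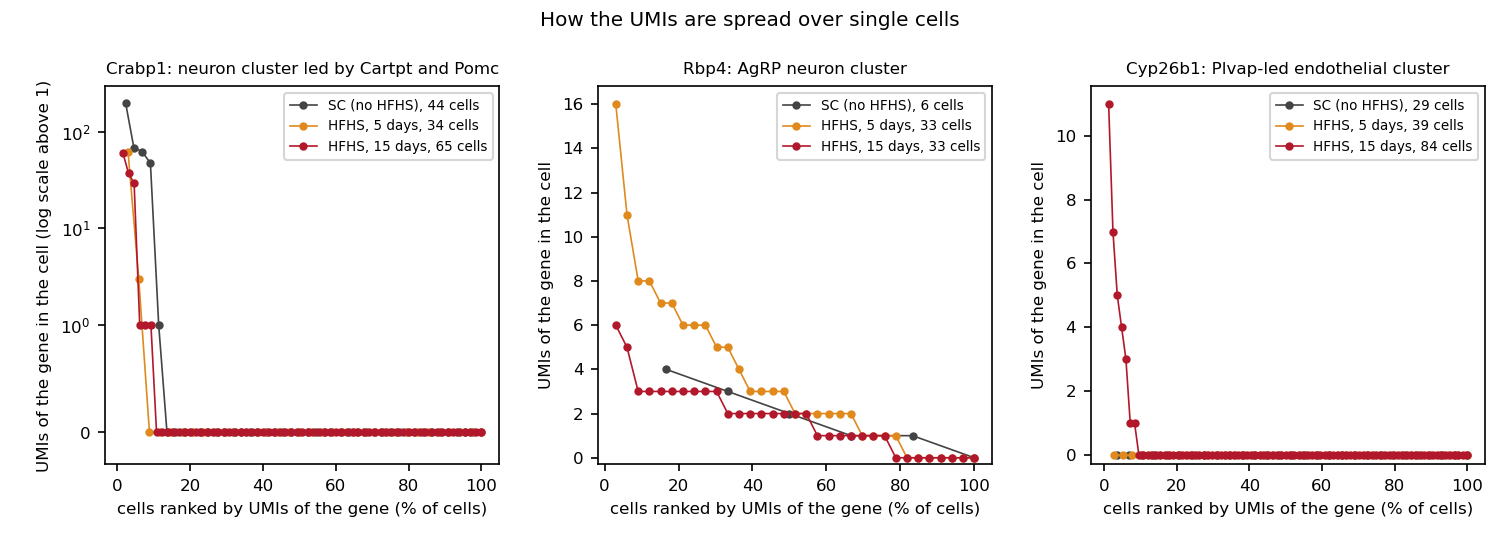
UMIs per cell of Crabp1 in cluster 3, Rbp4 in the Agrp-rich cluster 31 and Cyp26b1 in cluster 22, with 1 point for each cell, ranked along the x axis as % of the cells of its library. Crabp1 rests on single cells of up to 198 UMIs, Rbp4 is spread over 26 of 33 cells in the 5-day library and 25 of 33 in the 15-day library, and Cyp26b1 is seen in 7 cells of the 15-day library.

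The log2 ratio of Crabp1 to SC in neuron-like cells was -2.39 (-2.75 to -2.05) at 5 days and -1.22 (-1.51 to -0.94) at 15 days. Those intervals count molecules as if they were independent, while most molecules came from 3 cells per library. With each cell thinned to 1000 UMIs the log2 ratios were -0.15 and -0.29. The cells with a Crabp1 UMI then numbered 1.68% (SC), 2.42% (5-day) and 1.89% (15-day) of neuron-like cells, against 0.181%, 0% and 0% of microglia-like cells. The Crabp1 differences between diets in neurons were not detectable at that depth.

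Ependymal-like cells carried a low and broad Crabp1 signal, at 9.59 CPM (SC), 18.2 CPM (5-day) and 14.9 CPM (15-day), with at most 4 UMIs in a cell. The log2 ratio to SC was 0.93 (0.27 to 1.61) at 5 days, with 64 UMIs at 5 days against 29 in SC. The 2 ependymal-like clusters differed: cluster 6 had a log2 ratio of 0.11 (-0.94 to 1.15), and cluster 26 had 1.76 (0.80 to 2.86). Cluster 26 stood at 16.6 CPM (47 UMIs) in the 5-day library against 4.88 CPM (11 UMIs) in the SC library. At 15 days cluster 26 had a log2 ratio of 1.35 (0.22 to 2.56), at 12.4 CPM (20 UMIs) against 4.88 CPM in SC, and cluster 6 had 0.37 (-1.04 to 1.64). Cluster 6 had the higher level in every library, at 23.4 CPM (SC), 25.3 CPM (5-day) and 30.2 CPM (15-day). Tanycyte-like cells stood far lower, at 2.47 CPM (SC), 1.54 CPM (5-day) and 2.01 CPM (15-day), and tanycyte-like over ependymal-like the ratio ran from 0.084 to 0.257 over the libraries.

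Aldh1a1, which makes retinoic acid from retinaldehyde, was highest in fibroblast-like cells, the vascular leptomeningeal cells of the brain surface and large vessels. It stood there at 667 CPM (508 to 860.5) in the SC library, 970.5 CPM (801 to 1165) in the 5-day library and 162 CPM (123 to 211) in the 15-day library. The 15-day interval lies below both others. Fibroblast-like cells were few, with 13 cells (SC), 19 cells (5-day) and 63 cells (15-day), and Aldh1a1 was found in 10, 15 and 23 of them. Their level was 14.8-fold to 77.7-fold above the other named classes.

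At 15 days the log2 ratio of Aldh1a1 to SC in fibroblast-like cells was -2.04 (-2.59 to -1.49). At 5 days it went the other way, at 0.54 (0.08 to 1.02), under the 1.5-fold needed for a call. In this class 32.9% of all tested genes were called at 15 days and 15.2% at 5 days, so a call is common among fibroblast-like cells. The fibroblast markers differed in direction: Slc6a13, a transporter, stood at 223 CPM (15-day) and 1198 CPM (5-day) against 1549 CPM (SC). Mgp, a matrix protein, stood at 10089 CPM (15-day) and 2279 CPM (5-day) against 1131 CPM (SC), while Dcn, a proteoglycan shared by fibroblasts, was at 17812 CPM (15-day) and 13317 CPM (5-day) against 16722 CPM (SC). Summed over all 13 fibroblast markers, each detected in every library, the level was 36749 CPM (15-day) and 29529 CPM (5-day) against 30289 CPM (SC). The 3 named were picked after their values were seen. Pericyte markers summed to 1052 CPM (15-day) and 5967 CPM (5-day) against 3505 CPM (SC) in the same class, with 7 of 9 markers detected in each HFHS library. Kinds of fibroblast captured and level per fibroblast cannot be told apart here, and the part of the pericyte markers in the result was not tested.

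Astrocyte-like cells followed, at 66.2 CPM (SC), 62.2 CPM (5-day) and 48.6 CPM (15-day), with 607 UMIs in all. Pericyte-like cells stood at 84.1 CPM (SC), 60.8 CPM (5-day) and 22.9 CPM (15-day), which overlaps the astrocyte range. The log2 ratio in pericyte-like cells at 15 days was -1.88 (-3.27 to -0.72), from 7 UMIs in the 15-day library against 46 in SC, where 7.61% of all genes tested in pericyte-like cells were called (3.72% at 5 days). Leaving out the cell with most Aldh1a1 in each library took this pair under 50 UMIs, with a log2 ratio of -2.13. Ependymal-like cells had 19.8 CPM (SC), 17.1 CPM (5-day) and 16.0 CPM (15-day), and tanycyte-like cells 9.35, 7.53 and 7.44 CPM in the same order. Microglia-like cells had 2.74 CPM (SC), 3.18 CPM (5-day) and 2.17 CPM (15-day). Oligodendrocyte-like cells, at 2.82 CPM in the 15-day library against 5.66 CPM in SC, gave a log2 ratio of -1.003 (-1.92 to -0.16) at a level near that of microglia-like cells, where 4.27% of all genes tested were called (3.35% at 5 days).

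Aldh1a2, the enzyme that makes most retinoic acid in the embryo, was also highest in fibroblast-like cells, with 37 of its 72 UMIs in the named classes there. It stood at 147 CPM (78.3 to 251) in the SC library, 67.5 CPM (29.2 to 133) in the 5-day library and 46.4 CPM (26.5 to 75.3) in the 15-day library, and was found in 5 of 13, 6 of 19 and 5 of 63 cells. The 5-day interval overlaps both others, while the 15-day interval lies below that of SC. The log2 ratio of the 15-day library to SC was -1.66 (-2.81 to -0.49). No other class had a mean above 1.85 CPM. With 13, 8 and 16 UMIs the gene was under the minimum for a diet call.

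Cyp26b1, which breaks down retinoic acid, was close to its detection limit in nearly every class. Endothelial-like cells had 0.267 CPM (SC), 0.617 CPM (5-day) and 16.1 CPM (15-day). All 32 endothelial-like UMIs of the 15-day library lay in cluster 22, in 7 of its 84 cells, and the 3 highest cells held 11, 7 and 5 of them. Cluster 22 had none in its 29 SC cells, which allows up to 81.6 CPM, and none in its 39 cells of the 5-day library, which allows up to 50.2 CPM, against 192 CPM in the 15-day library. Plvap, a protein of fenestrated vessels such as those of the median eminence, stood in that cluster at 2155 CPM in the 15-day library, in 23 of 84 cells. At 5 days it stood at 335 CPM, all from 1 cell of 39, and in SC at 0 UMIs, which allows up to 81.6 CPM. The cells of cluster 22 were shallow, with a median of 1006 UMIs (SC), 985 UMIs (5-day) and 1104.5 UMIs (15-day). The vessels that fell inside the punch and the level per vessel cell cannot be told apart. With 33 UMIs over the 2 libraries the class was under the minimum for a call.

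Rarb, a retinoic acid receptor that is itself a known target of retinoic acid, was low in many classes. It stood at 33.9 CPM (SC), 25.3 CPM (5-day) and 40.6 CPM (15-day) in fibroblast-like cells, from 20 UMIs, and at 10.5, 13.1 and 9.48 CPM in astrocyte-like cells in the same order. Neuron-like cells had 6.90 CPM (SC), 6.90 CPM (5-day) and 7.60 CPM (15-day), OPC-like cells 7.15, 6.34 and 7.15 CPM, and ependymal-like cells 6.28, 5.13 and 8.53 CPM. Over the 3 libraries the fibroblast-like range lay above the astrocyte-like range, which lay above those of neuron-like, OPC-like and ependymal-like cells. The ranges of the last 3 classes overlapped, so the order among them is not fixed by these data. Smooth muscle-like cells (0 to 30.4 CPM, 5 UMIs) and pericyte-like cells (7.31 to 13.1 CPM, 12 UMIs) overlapped several of these ranges. Microglia-like cells had no Rarb UMI in 577, 511 and 639 cells, which allows up to 0.824 CPM (SC), 0.954 CPM (5-day) and 0.815 CPM (15-day). Tanycyte-like cells, at 2.18 CPM (SC), 2.19 CPM (5-day) and 1.89 CPM (15-day), stood at 0.221 to 0.426 of the ependymal level. No diet call was made for Rarb, in 3 classes with enough UMIs.

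The promoter of Rarb is shown because it was the only one of those examined that held a spaced pair of the hexamers that retinoic acid receptors bind. Promoter windows from RefSeq (build GRCm38.p6) were at hand for 8 of the 9 genes, in 13 windows. Direct repeats of AGGTCA or AGTTCA with 1, 2 or 5 bases between them, read on both strands, were in none of the 13, and in 0.0822%, 0.0396% and 0.0396% of all 32851 windows. After the sequences were seen, GGGTCA and GGTTCA were added as hexamers, and the shares became 0.222%, 0.268% and 0.0974%. With these, Rarb alone held a repeat, with 5 bases between the hexamers, 53 to 37 bases before the RefSeq start. The stretch below lies on the minus strand at chr14:16575493-16575559 (GRCm38.p6), from 83 to 17 bases before that start, inside the longer Rarb gene span, and the capitals mark the 2 hexamers.
Rarb: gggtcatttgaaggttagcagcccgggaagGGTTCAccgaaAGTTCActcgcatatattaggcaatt
A match of letters is a description of the sequence and says nothing of binding in these cells.

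Rarres2, the gene of chemerin, was by far the most detected of the 9 and was highest in ependymal-like cells. It stood at 3409 CPM (3343 to 3475) in the SC library, 3573 CPM (3510 to 3636) in the 5-day library and 3342 CPM (3260 to 3426) in the 15-day library in ependymal-like cells. That was 9.19-fold to 14.8-fold above the other named classes, and 96.2% (SC), 97.9% (5-day) and 96.4% (15-day) of these cells held a UMI. Tanycyte-like cells had 871 CPM (SC), 921 CPM (5-day) and 660.4 CPM (15-day), at 0.198 to 0.258 of the ependymal level. Because tanycyte-like cells were more numerous and deeper, they still held 31783 of the 69532 Rarres2 UMIs, against 29116 in ependymal-like cells.

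Pericyte-like cells stood at or above tanycyte-like cells in every library. They had 879 CPM (SC), 1014 CPM (5-day) and 909 CPM (15-day), and fibroblast-like cells 689.7, 684 and 499 CPM in the same order, ranges that overlap the tanycyte range. Smooth muscle-like cells stood at 433 CPM (SC), 354 CPM (5-day) and 385 CPM (15-day), and astrocyte-like cells at 139, 159 and 134 CPM. Microglia-like cells, the measure of free RNA, had 26.9 CPM (SC), 20.3 CPM (5-day) and 16.6 CPM (15-day). Thinned to 1000 UMIs per cell, Rarres2 was in 94.3% (SC), 95.7% (5-day) and 93.8% (15-day) of ependymal-like cells. In the same order the shares were 61.5%, 54.1% and 63.7% of pericyte-like cells, 41.5%, 41.1% and 36.9% of tanycyte-like cells, 30.8%, 52.6% and 34.4% of fibroblast-like cells and 40.9%, 16.7% and 46.2% of smooth muscle-like cells. Astrocyte-like cells had 11.3%, 13.9% and 12.98%, against 3.25%, 3.06% and 3.51% of microglia-like cells. Neuron-like cells, at 4.03%, 2.42% and 3.14%, were close to that background.

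The tanycyte-like cells were not alike. Cluster 18, led by Rspo3, Tgfb2 and Slit2, stood at 1535 CPM (SC), 1574 CPM (5-day) and 1415 CPM (15-day). Cluster 0, led by Crym, Frzb and Rax, stood at 414, 388 and 338 CPM, and cluster 24, led by Scn7a, Col25a1 and Dio2, at 67.7, 80.4 and 78.6 CPM, each in the same order. The 3 clusters kept the same order in every library, with intervals that did not overlap. Both ependymal-like clusters were high: cluster 6, led by the ciliary genes Ccdc153 and Tmem212, had 4106 CPM (SC), 4274 CPM (5-day) and 4260 CPM (15-day), and cluster 26, led by Aebp1 and Col6a5, had 3171, 3407 and 3192 CPM. Cluster 7, which held markers of both classes in equal number and stayed unnamed, had 1473 CPM (SC), 1327 CPM (5-day) and 1140 CPM (15-day).

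The number of Rarres2 UMIs per UMI of the ciliary gene Ccdc153 differed between these clusters. It was 4.27 (SC), 4.07 (5-day) and 4.39 (15-day) in tanycyte-like cluster 18 and 14.2, 18.1 and 27.4 in tanycyte-like cluster 0. In tanycyte-like cluster 24 it was 26.3 (SC) and 14.3 (15-day), from 3 Ccdc153 UMIs each, with 0 Ccdc153 UMIs at 5 days. The ependymal-like clusters had 1.83 (SC), 1.73 (5-day) and 1.43 (15-day) in cluster 6 and 1.56, 1.56 and 1.41 in cluster 26. Cluster 18 itself held Ccdc153 at 360 CPM (SC), 387 CPM (5-day) and 322 CPM (15-day), in 47.4%, 46.8% and 37.9% of its cells. Cluster 0 held it at 29.1, 21.5 and 12.4 CPM in the same order. The part of free RNA, or of cells with ciliary genes, in the tanycyte-like levels was not tested. Rax, a transcription factor that marks tanycytes, was lower in cluster 18, where Rarres2 was higher, with 513 CPM (SC), 543 CPM (5-day) and 547 CPM (15-day) in cluster 0 and 179, 181 and 193 CPM in cluster 18.

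**Figure D3:**
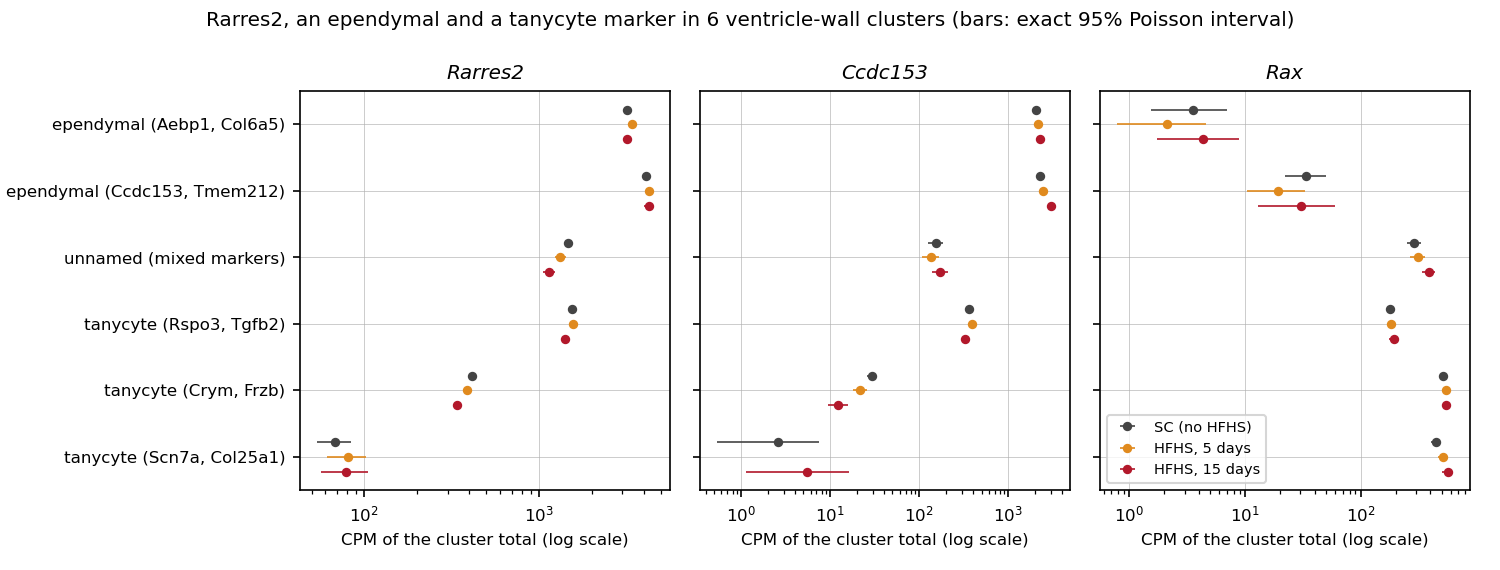
Rarres2, the ciliary gene Ccdc153 and the tanycyte gene Rax in 6 clusters of the ventricle lining, in CPM on a log axis, with 1 point for each library. Rarres2 runs from 67.7 to 80.4 CPM in cluster 24 up to 4106 to 4274 CPM in cluster 6; no point is drawn where a library had 0 UMIs.

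Rarres2 in tanycyte-like and ependymal-like cells differed from SC by less than 1.5-fold at each time. In ependymal-like cells the log2 ratio to SC was 0.07 (0.03 to 0.11) at 5 days. In tanycyte-like cells it was -0.40 (-0.44 to -0.36) at 15 days, a ratio under the 1.5-fold needed for a call. The mix of tanycyte-like clusters moved too: cluster 18 held 31.5% of tanycyte UMIs at 15 days against 42.9% in SC, and cluster 0 held 62.1% against 50.3%. Within the clusters the log2 ratios at 15 days were -0.12 (-0.17 to -0.06) in cluster 18, -0.29 (-0.38 to -0.21) in cluster 0 and 0.21 (-0.36 to 0.77) in cluster 24. In the unnamed cluster 7 it was -0.37 (-0.52 to -0.22). All of these intervals but that of cluster 24 lie below 0, and they cover counting error only.

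In neuron-like cells, which held Rarres2 at close to the background share, the level was 30.9 CPM (5-day) and 21.2 CPM (15-day) against 63.6 CPM (SC), with log2 ratios of -1.04 (-1.34 to -0.76) and -1.58 (-1.96 to -1.22). A single cell gave 29.8% of the SC molecules with 88 UMIs, and without the cell barcodes shared between libraries the log2 ratios were -0.43 and -0.54, which ended both calls. In microglia-like cells the log2 ratio at 15 days was -0.70 (-1.18 to -0.22), with 61 UMIs in the 15-day library against 98 in SC, where 5.1% of all genes tested were called (2.78% at 5 days); microglia-like cells stand here for free RNA.

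Cmklr1, the chemerin receptor, had its highest levels in 3 classes, of which fibroblast-like cells also held Rarres2. It was highest in border macrophage-like cells, at 44.4 CPM (SC), 68.2 CPM (5-day) and 75.0 CPM (15-day), from 8, 8 and 16 UMIs, and in microglia-like cells, at 62.6 CPM (54.7 to 71.3) in SC, 59.1 CPM (50.9 to 68.3) at 5 days and 46.2 CPM (39.5 to 53.7) at 15 days. Fibroblast-like cells followed, at 22.6 CPM (SC), 33.8 CPM (5-day) and 63.8 CPM (15-day), from 2, 4 and 22 UMIs. The 3 classes overlapped and could not be ordered. Tanycyte-like cells stood at 0.100 to 0.102 of the other named classes, and ependymal-like and neuron-like cells were also lower, so ependymal-like and tanycyte-like cells held Rarres2 with little Cmklr1.

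Of microglia-like cells, 28.8% (SC), 23.3% (5-day) and 22.4% (15-day) held a Cmklr1 UMI, against 0.172%, 0.476% and 0.588% of oligodendrocyte-like cells, which are deeper (median 14068, 15515.5 and 9743 UMIs, against 5381, 4917 and 4796 in microglia-like cells). In cells thinned to 1000 UMIs it was 5.42%, 4.69% and 3.83% of microglia-like cells. The log2 ratio to SC in microglia-like cells at 15 days was -0.44 (-0.73 to -0.15), under the 1.5-fold of the call rule.

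Across all classes, diet calls needed at least 50 UMIs in the 2 libraries together, a ratio of at least 1.5 either way and an interval that excluded 1. Of 28 gene and class pairs with enough UMIs, 5 were called at 5 days, 2 higher and 3 lower, where 4.36% of all pairs of a gene and a class were called. At 15 days 8 were called, 1 higher and 7 lower, where 7.73% were. Both comparisons use the same SC library. Calls in neuron-like cells were common among all genes: 3 of the calls at each time were in neuron-like cells, where 11.6% of all genes were called at 5 days and 18.9% at 15 days. Outside neurons, the 5-day calls were Stra6 in endothelial-like cells, where 2.65% of genes were called (6.29% at 15 days), and Crabp1 in ependymal-like cells, where 2.37% were (5% at 15 days). The 15-day calls outside neurons were Stra6, Rarres2 in microglia-like cells and Aldh1a1 in fibroblast-like, pericyte-like and oligodendrocyte-like cells. Rarres2 in 11 classes had enough UMIs, and its calls were in neuron-like and microglia-like cells only. Aldh1a2 and Cyp26b1 had enough UMIs in none.

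**Figure D4:**
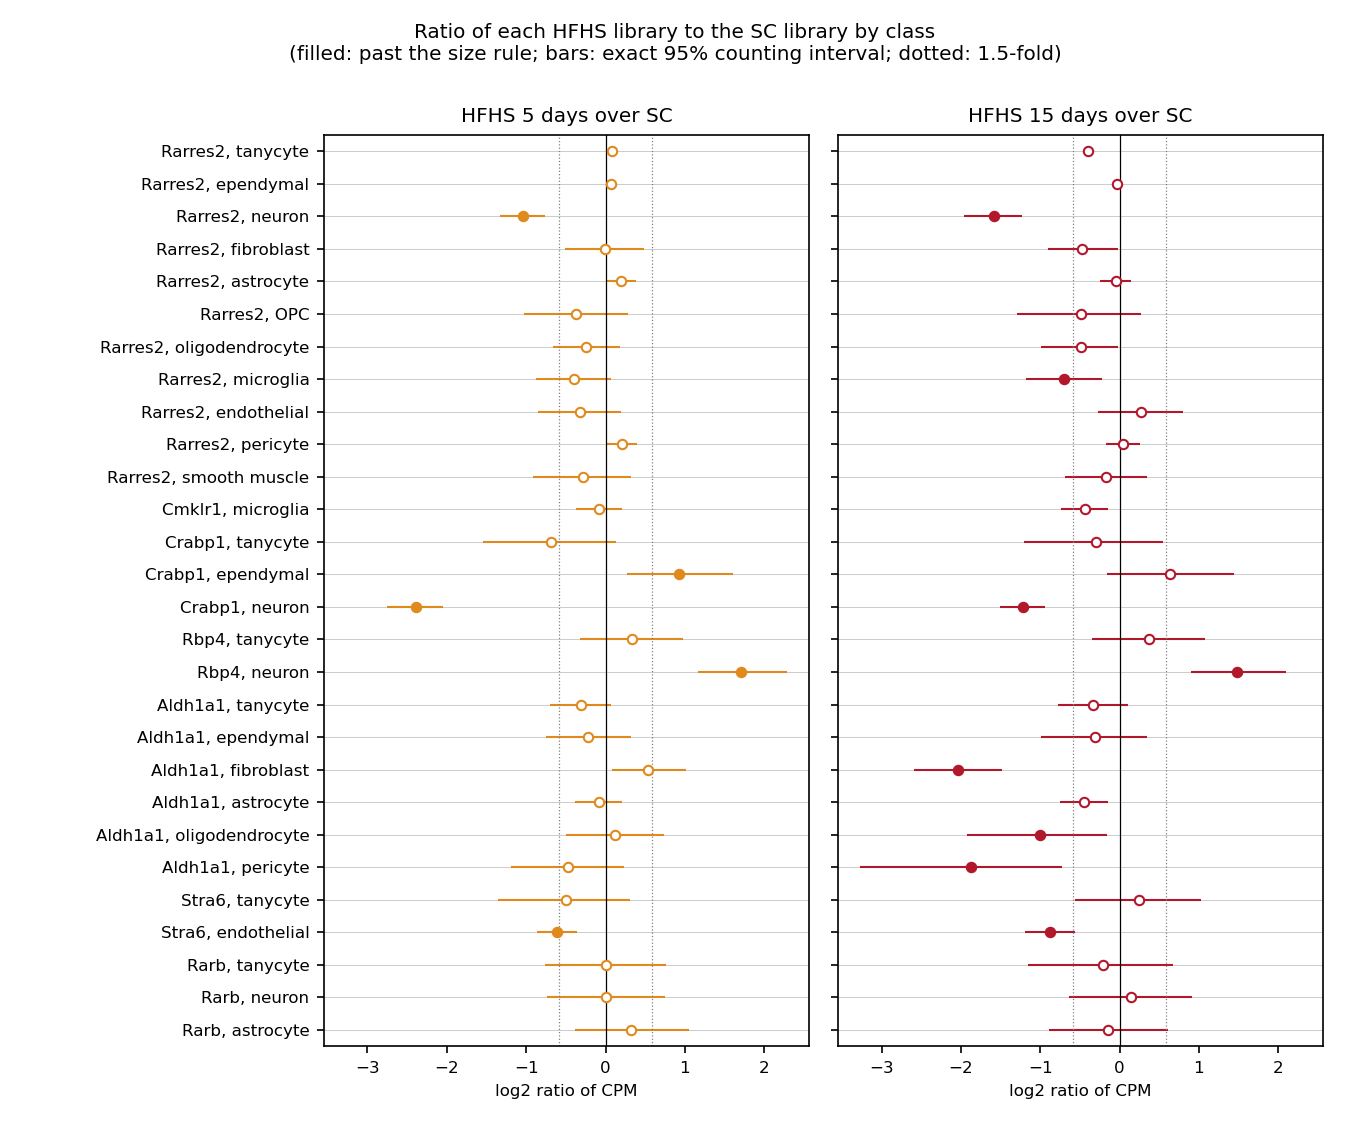
Log2 ratio of HFHS to SC for the 28 gene and class pairs with at least 50 UMIs, at 5 and at 15 days, with exact 95% intervals; filled points pass the call rule. At 15 days 7 of the 8 filled points lie below 0, with Aldh1a1 in fibroblast-like cells at -2.04 and Rbp4 in neuron-like cells at 1.49.

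Between the ventricle-lining classes, tanycyte-like cells were set against ependymal-like cells for the 6 genes with at least 50 UMIs in the pair. In tanycyte-like cells 1 was higher, Rbp4 (2.14-fold to 8.00-fold), where 5.32% of all genes were. From that count nothing is read, because Rbp4 reached the minimum only through tanycyte-like cells (115 UMIs, against 7 in ependymal-like cells). It stood at 2.65 CPM (SC), 3.32 CPM (5-day) and 3.42 CPM (15-day) in tanycyte-like cells, against 0.331, 0.855 and 1.60 CPM in ependymal-like cells. In tanycyte-like cells 4 were lower, where 10.2% of all genes were: Rarres2, Crabp1, Aldh1a1 (0.441 to 0.471 of the ependymal level) and Rarb. The Aldh1a1 call was lost under trimmed mean scaling, without shared barcodes and with cluster 7 counted as ependymal, and its direction turned in thinned cells.

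A wider list of 42 genes of retinol transport, oxidation, clearance, receptors, retinoid targets and chemerin binding set these 9 in their pathway. Of the 42, 31 had enough UMIs in the named cells and 22 in the tanycyte and ependymal pair. In tanycyte-like cells 5 of the 31 were higher and 10 lower, beside 8.14% and 23.1% of all genes. The 3 with the largest ratios were Lrat, which stores retinol as esters, 23.8-fold to 35.0-fold above the other named classes, Rara, a retinoic acid receptor, 4.23-fold to 4.93-fold, and Crabp2, a binding protein that hands retinoic acid to receptors, 2.76-fold to 7.97-fold. Lrat stood at 13.4 CPM (SC), 10.0 CPM (5-day) and 11.6 CPM (15-day) in tanycyte-like cells, against 0.661, 0.570 and 0 CPM in ependymal-like cells. It reached the minimum only through tanycyte-like cells, so nothing is read from its place in the count of 5.

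In ependymal-like cells 4 of the 31 were higher and 6 lower, beside 10.9% and 17.8% of all genes. The 3 largest were Rbp2 and Rdh10, with Rdh5 after them. Rbp2, a cellular retinol binding protein, stood at 35.4 CPM (SC), 40.5 CPM (5-day) and 44.8 CPM (15-day), 24.1-fold to 86.2-fold above the other named classes. Rdh10, which oxidises retinol to retinaldehyde, stood at 140.2, 170.9 and 156 CPM in the same order, 7.76-fold to 10.3-fold above them. Rdh5, another retinol dehydrogenase, was 3.35-fold to 4.58-fold above them. Between the pair of ventricle classes 4 of 22 were higher in tanycyte-like cells, Lrat, Crabp2, Rdh12 and Dhrs4, and 5 were lower, Rbp2, Fabp5, Rdh5, Rdh10 and Tgm2, beside 5.32% and 10.2% of all genes. Lrat reached the minimum in this pair only through tanycyte-like cells, so nothing is read from its place among the higher genes.

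In neuron-like cells 3 of the 31 were higher and 11 lower, beside 16.5% and 18.3% of all genes. The higher ones were Gpr1, another chemerin receptor gene (11.9-fold to 37.8-fold, from 35 UMIs), Rxrg, a partner of the retinoic acid receptors (10.5-fold to 20.9-fold, at 27.8 CPM in SC, 25.2 CPM at 5 days and 26.5 CPM at 15 days), and Ttr, the plasma partner of RBP4 (3.18-fold to 21.3-fold, from 60 UMIs). Gpr1 reached the minimum only through neuron-like cells, so nothing is read from its place in the count of 3. In fibroblast-like cells 4 were higher and 1 lower, beside 3.9% and 4.34% of all genes. Adh1, a retinol-oxidising alcohol dehydrogenase, stood there at 90.5 CPM (SC), 109.7 CPM (5-day) and 220.3 CPM (15-day), and Tgm2, a retinoid-responsive transglutaminase, at 102 CPM (SC), 245 CPM (5-day) and 128 CPM (15-day). The map of the wider list shows these genes in different classes rather than in 1.

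**Figure D5:**
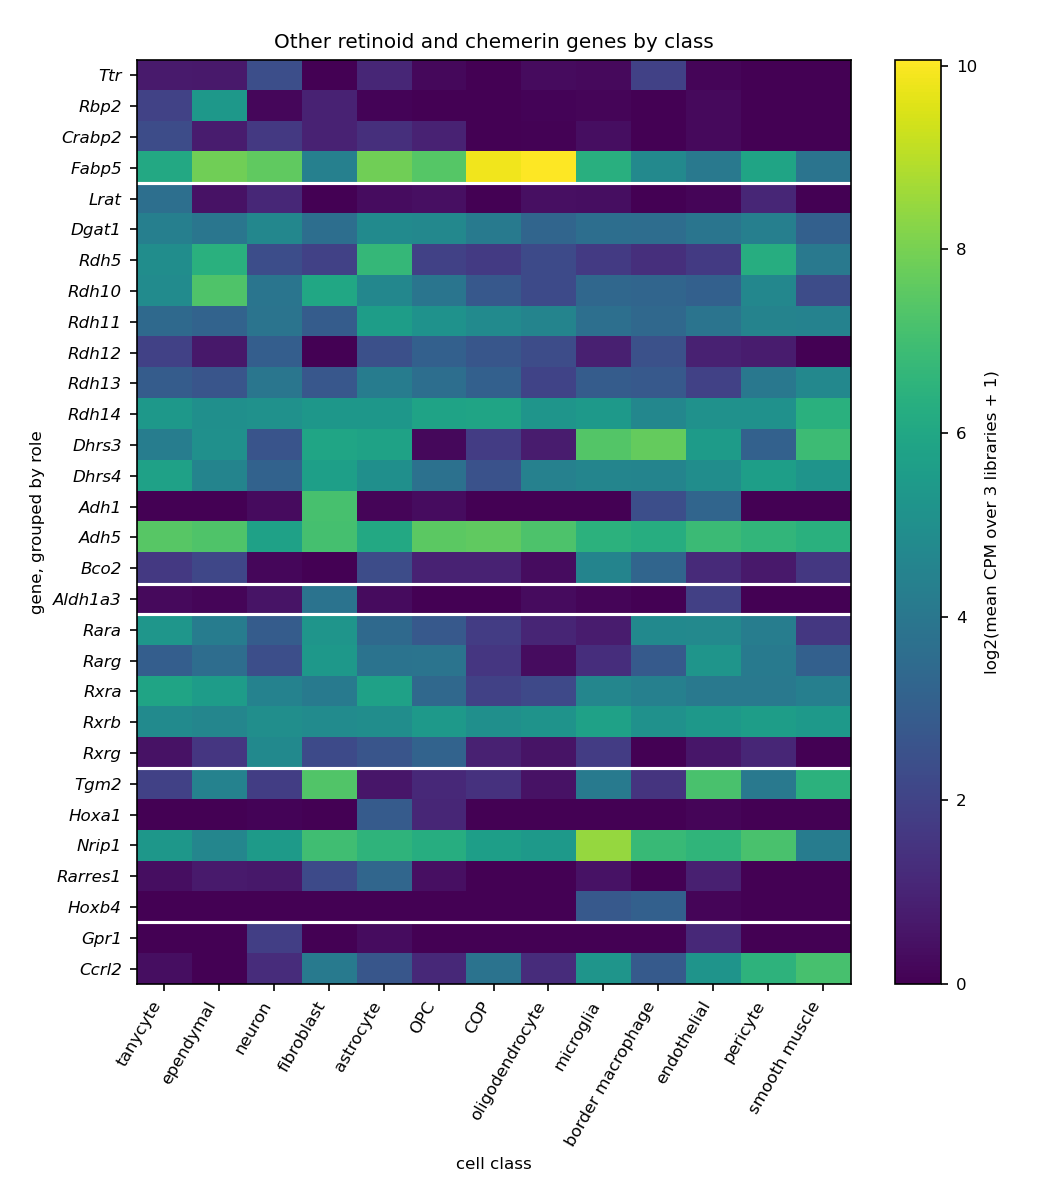
Mean level over the 3 libraries of wider-list genes with enough UMIs (rows) in 13 cell classes (columns), as log2(mean CPM + 1) by colour. Lrat is highest in tanycyte-like cells, Rbp2 and Rdh10 in ependymal-like cells, Rxrg in neuron-like cells and Adh1 in fibroblast-like cells.

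By diet, 8 of 139 gene and class pairs of the wider list were called at 5 days, 6 higher and 2 lower, and 12 of 136 at 15 days, 7 higher and 5 lower, beside the 4.36% and 7.73% called over all pairs of a gene and a class at those times. Adh1 in fibroblast-like cells was higher at 15 days, at 220.3 CPM in the 15-day library against 90.5 CPM in SC (log2 ratio 1.28, 0.23 to 2.55), while Aldh1a1 was lower in the same cells. In astrocyte-like cells Fabp5, a fatty acid and retinoic acid binding protein, stood at 288 CPM (5-day) and 251 CPM (15-day) against 165 CPM (SC). Rbp2 in tanycyte-like cells fell to 1.65 CPM (15-day), against 3.59 CPM (SC), from 14 and 61 UMIs. These genes were picked from the calls after their values were seen.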

How the data were processed

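The deposited values are whole-number UMI counts per gene and cell barcode; per the file headers the matrices come from 10x software version 3.1.0, and per the submitters' processing notes Cell Ranger, Scanpy 1.4.4 and SAMtools were used with GRCm38. The 3 matrices held 7116 (SC), 6204 (5-day) and 7823 (15-day) barcodes and 59315940, 52735770 and 43193012 counts.

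Barcodes with at least 500 genes and at most 20% mitochondrial counts were kept. Doublets were scored with Scrublet in Scanpy 1.11.5, whose automatic threshold marked 0%, 1.27% and 1.53% of barcodes, so the highest-scoring 0.8% per 1000 cells were removed (209, 145 and 242). Cells were clustered (3000 variable genes without the 9 genes and the wider list, 40 components, 15 neighbours, Leiden resolution 1). A cluster was named from at least 3 class markers among its 50 leading genes, where no other class tied or led. Counts were summed per class and library, and 1 count minimum of 50 was used for all class and diet calls. Ratios within clusters were computed from at least 20 UMIs in the libraries compared, and the likeness of genes from at least 100 UMIs. Python 3.11.15, SciPy 1.17.1 and edgeR 4.0.16 (for scaling factors only, in R 4.3.3) were used.

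The genes, lists and rules were chosen with earlier results of these data known. Of the wider list, the 3 genes with the largest ratio per class contrast are named by rule; 1 gene of that list is counted but not reported here. Class differences are descriptions. Intervals are exact Poisson, conditional binomial or Clopper-Pearson intervals at 95%, and the limit at a count of 0 is 3 counts. Droplet counts of a gene with an overlapping gene on the other strand (Rarres2 with Lrrc61, Rarb with Top2b) are taken as deposited. Alternatives were another scaling, minimum, cell filter, clustering, thinned cells and left-out libraries.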

Additional observations from a re-analysis of the deposited data

How the results depend on the processing

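The 5 diet calls at 5 days became 9 with no UMI minimum and 0 in cells thinned to 1000 UMIs, and the 8 at 15 days became 1 in thinned cells (Stra6). The count of genes higher in a class was 8, and 3 in thinned cells, with 7 to 10 over the sets that leave out 1 library. Without the SC library Aldh1a2 in fibroblast-like cells was lost and Crabp1 in ependymal-like cells, Crabp1 and Stra6 in fibroblast-like cells were gained, and without the 15-day library Aldh1a2 in fibroblast-like cells was lost. Without the 5-day library Rarres2 in tanycyte-like cells and Rarb in ependymal-like cells were gained. Rarres2 in tanycyte-like cells was also gained without the barcodes shared between libraries. For tanycyte-like over ependymal-like cells the count of 1 (Rbp4) became 0 in thinned cells and 0 at Leiden resolution 2, and 2 with the genes themselves allowed to drive the clustering. The count was 1 without each library. With at least 1000 genes per barcode, and with cluster 7 counted as ependymal, Rbp4 was lost and Stra6 was gained. Thinning leaves fewer UMIs, so most pairs then fall under the minimum of 50. It turned the direction of Rarres2 in microglia-like cells at 15 days (log2 ratio 0.10), Aldh1a1 in oligodendrocyte-like cells at 15 days (1.16), and, for tanycyte-like over ependymal-like cells, Rbp4 (-0.51) and Aldh1a1 (0.35), where the cause beyond the few UMIs was not tested. Under trimmed mean and median-of-ratios scaling Rarres2 was also higher in tanycyte-like cells and Rarb was no longer higher in neuron-like cells. Aldh1a1 in fibroblast-like cells was called higher at 5 days under both scalings and with the genes themselves allowed to drive the clustering. With at most 10% mitochondrial counts and at resolution 2, Rarres2 in neuron-like cells was not called at either time. The alternatives on shared barcodes and on counting cluster 7 as tanycyte or ependymal were chosen after seeing the data. Of the values tracked for single genes, 378 kept their reading, 67 moved and 4 turned. No paired analysis was possible because there is 1 library per diet. Depth limits Aldh1a2, Cyp26b1 and every class of few cells, and 1 library per diet limits every diet difference.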

Other observations

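The genes whose levels followed each of 8 genes most closely were read over 39 points (13 classes in 3 libraries), as Pearson's r of log2(CPM + 10), among 15315 genes with at least 100 UMIs. The points of a class share its cells' type and those of a library its depth, so r is a description and carries no p. Rarres2 ran closest to Gpx8 (0.952), Prelp (0.938) and Fxyd1 (0.911). Stra6 ran closest to Foxq1 (0.965), Dnah2os (0.957) and Flvcr2 (0.955), and Cmklr1 to Cmtm7 (0.924), Unc93b1 (0.908) and Abca9 (0.9002). For Aldh1a1 the closest were Thbs2 (0.938), Gjb2 (0.912) and D630003M21Rik (0.906).

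Rbp4 was most like Cgref1 (0.905), Ypel4 (0.891) and Gm44644 (0.879). Cyp26b1 was most like Esm1 (0.928), Plvap (0.907) and Dipk2b (0.689), the last with a gap to the others. Cyp26b1 stood at 16.1 CPM in endothelial-like cells of the 15-day library, and no other of the 39 points was above 2.62 CPM. The r values of Cyp26b1 thus rest largely on that 1 point and do not describe a likeness across classes. Crabp1 and Rarb had weaker neighbours, with Cntnap1 (0.808), Zdbf2 (0.790) and Frmpd4 (0.784) for Crabp1, and Obsl1 (0.839), Gpr153 (0.813) and Fgfr1 (0.796) for Rarb. Aldh1a2 had under 100 UMIs in the named cells and was left out.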
